A study of Caenorhabditis elegans with 12 samples.

Results

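The data described here are the small RNA libraries of young adult Caenorhabditis elegans with and without the microRNA gene mir-71. They comprise 6 of the 12 libraries of the study, with 3 from wild-type worms (N2) and 3 from mir-71(n4115) mutants, all whole animals at day 0 of adulthood. n4115 is a deletion allele that removes mir-71 from every tissue. Both strains were grown at 20 °C and transferred, soon after the last moult, to 5-fluorodeoxyuridine plates (0.1 mg/mL), a drug that blocks DNA synthesis and so keeps progeny from developing. How long the day 0 animals had spent on that drug is not given in the sources used here. Of the 213 mature microRNAs in the table, the 2 arms of miR-71 were set apart, and the other 211, which come from 150 genes, form the profile described below. The remaining 6 libraries are day 5 adults of the same strains and are used only for a shared estimate of the spread and for 1 comparison of the strain difference between ages.

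A microRNA gene is transcribed into a hairpin, from which a pair of short strands, the 5p and the 3p arm, is cut. One arm usually becomes the guide that lets an Argonaute protein find and repress messenger RNAs, and the other, the passenger, is mostly degraded. mir-71 is an abundant microRNA of the worm, active in neurons, intestine, muscle and hypodermis. It promotes long life, stress resistance and survival of starvation. The comparison asks what the microRNA profile of a young adult looks like and how far it holds when this abundant member is missing.

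Levels are normalised read counts as the authors scaled them. Dividing by the smallest step of each library gave 917170 to 3344229 microRNA reads in the day 0 libraries. The normalised totals were not equal after the authors' scaling. Without miR-71 they were between 1276280 in mutant replicate 2 and 3024570 in mutant replicate 1, with the 3 N2 libraries between 1433900 and 2168860. Differences are given as log2 of the mutant level over the N2 level, after adding 1 to each normalised count, with the standard error (SE) from limma.

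miR-71 itself was all but absent from the mutants. miR-71-5p, the guide arm, had 173431, 155783 and 123352 normalised counts in the 3 N2 libraries and 52.5, 139 and 109 in the 3 mutant libraries. Every mutant library lay far below every N2 library, and the mean of the mutants came to 0.0663% of that of N2. The log2 difference was -10.64 ± 0.43 (SE, n = 3 per strain), with a limma adjusted p of 7.83e-12. In rank, miR-71-5p was number 3 of all 213 microRNAs in N2 and number 122 in the mutants.

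The passenger arm, miR-71-3p, had 386, 355 and 153 normalised counts in N2 and no read in any mutant library. A count of 0 allows up to 3 reads, worth at most 4.18 normalised counts in these libraries, so that miR-71-3p was at least 71.3-fold lower in the mutants (limma adjusted p = 2.13e-09). Such floors cover counting error only. The 58, 100 and 103 reads of miR-71-5p left in the mutants were thus few but not 0. At the N2 ratio of the arms they would bring 0.515 reads of miR-71-3p over the 3 mutant libraries together. Where these reads came from was not tested. Apart from these few reads, the miR-71 levels went with the strains named in the labels.

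**Figure D1:**
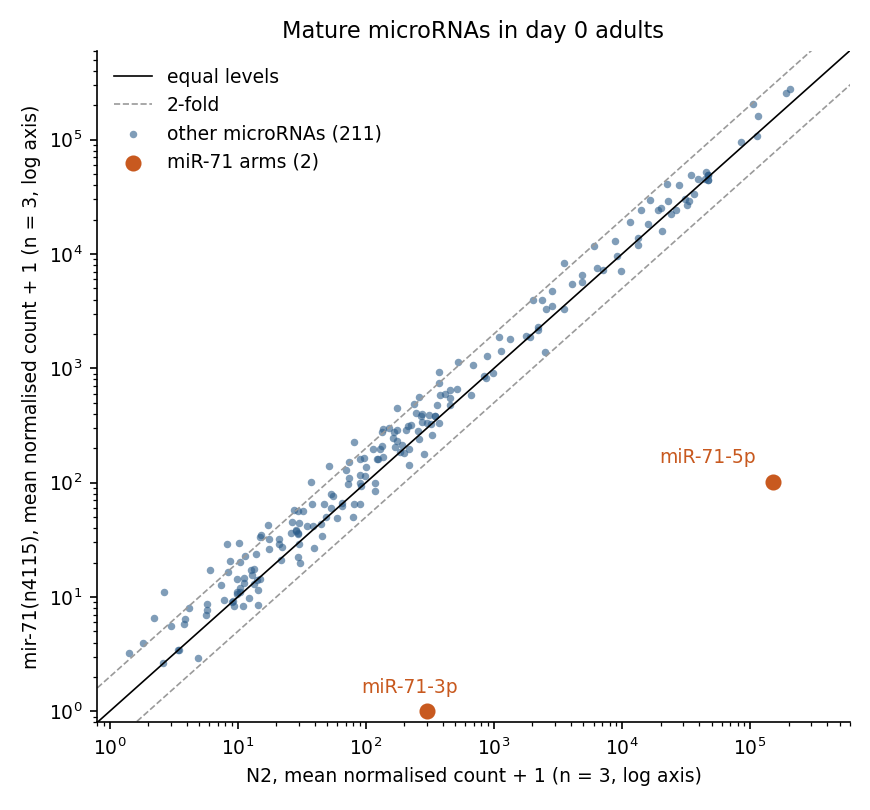
Mean normalised count plus 1 of each mature microRNA in the 3 N2 libraries (x axis) and the 3 mir-71(n4115) libraries (y axis), both axes logarithmic, with the line of equal levels and dashed lines at 2-fold. The miR-71 arms lie far below the line, while the other 211 microRNAs follow it and none with an N2 mean of at least 10000 lies outside the dashed lines.

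The loss of miR-71 took a measurable share out of the pool. Its arms together held 7.42%, 9.82% and 7.87% of the normalised microRNA total in the N2 libraries. In the mutants they held 0.00173%, 0.0109% and 0.00547%. The strains did not overlap, and the difference reached p = 0.1 in a two-sided exact permutation test, the smallest value that 3 against 3 libraries allow.

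Among the other microRNAs the profile was led by the same microRNAs in both strains. miR-58-3p, of the bantam-related mir-58 family, had 292686, 137413 and 187106 normalised counts in N2 and 408122, 168319 and 263676 in the mutants. The ranges overlapped, though the mutant was the higher in each of the 3 replicate numbers, and the difference was 0.42 ± 0.54, with an SE of 0.31 and a limma adjusted p of 0.687 with the replicate number as a block. miR-58-3p held 12.0% ± 2.12 (SD, n = 3) of the N2 total without miR-71 and 13.3% ± 0.156 of the mutant total, and it was the most abundant microRNA in 5 of the 6 libraries. N2 replicate 1 was the exception, with miR-70-3p in first place.

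miR-70-3p was second by mean in both strains. It had 302419, 113050 and 160597 normalised counts in N2 and 353729, 157365 and 259345 in the mutants, again overlapping and again higher in the mutant in each number, with a difference of 0.46 ± 0.59 (SE 0.30 with the block, limma adjusted p = 0.615). miR-1-3p, the microRNA of body wall and pharyngeal muscle, was number 3 in the mutants and number 5 in N2, with 111838, 120775 and 80998 in N2 and 370872, 49845 and 192489 in the mutants. Here the mutants held both the highest and the lowest library, and the difference of 0.57 ± 0.65 did not exceed its error. miR-80-3p and miR-82-3p, relatives of miR-58, differed by 0.26 ± 0.51 and -0.01 ± 0.51.

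miR-48-5p, a let-7 relative that times larval development, was sixth among the 211 in both strains. It had 86261, 91268 and 77557 normalised counts in N2 and 140056, 48194 and 99824 in the mutants, with a difference of 0.05 ± 0.49. The N2 libraries were close together and lay inside the spread of the mutants.

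From the seventh place on, levels were about alike between neighbours. miR-64-5p and miR-65-5p, from a common hairpin cluster, differed between strains by 0.20 ± 0.38 and 0.06 ± 0.36. miR-52-5p, of the mir-51 family needed redundantly in the embryo, differed by 0.04 ± 0.43, and miR-238-3p, which like miR-71 promotes long life, by 0.01 ± 0.41. miR-44-3p and miR-45-3p had identical values in every library, so that their reads cannot be told apart here, and each differed by 0.00 ± 0.54. None of these 12 most abundant microRNAs had strains that did not overlap.

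**Figure D2:**
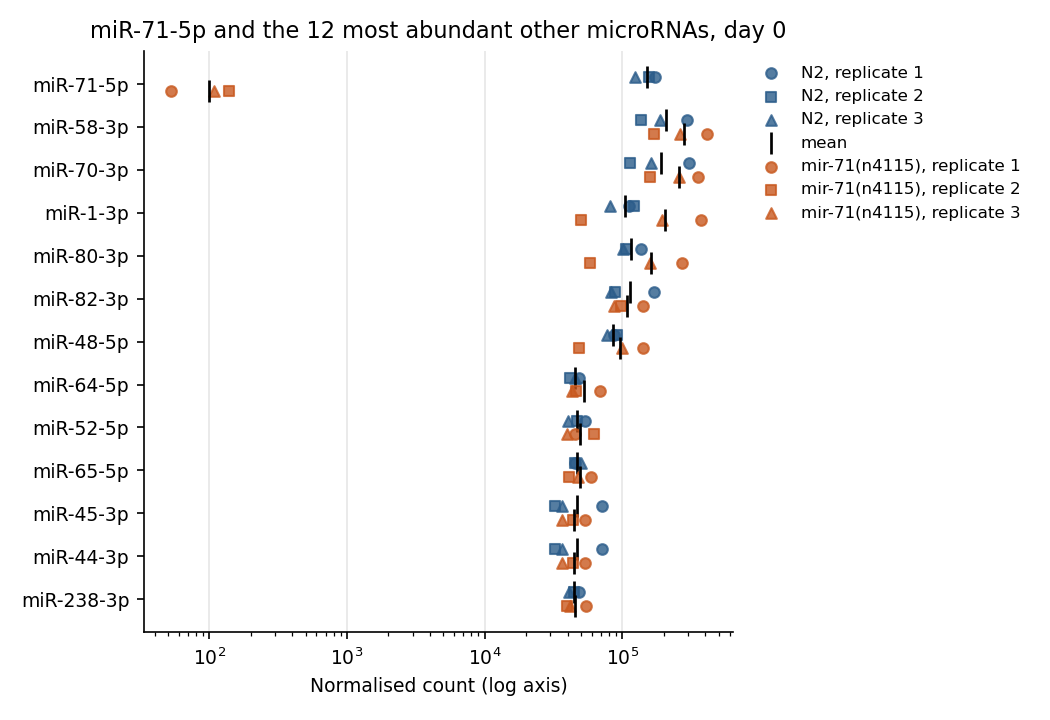
Normalised count (x axis, logarithmic) of miR-71-5p and of the 12 most abundant other microRNAs in each day 0 library, with 1 symbol per replicate number, N2 in blue, mir-71(n4115) in orange and black bars for the means. Only miR-71-5p separates the strains, and mutant replicates 1 and 2 bound the mutant range of miR-58-3p, miR-1-3p, miR-80-3p and miR-48-5p among others.

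The share of the profile held by its most abundant members was similar in the strains. The 10 most abundant microRNAs, taken over both strains, held 60.7%, 57.4% and 59.5% of the N2 totals without miR-71. They held 63.2%, 60.5% and 61.9% of the mutant totals. The means of 59.2% ± 1.66 and 61.8% ± 1.36 (SD, n = 3) differed by 2.63 percentage points, which an exact permutation test did not separate (p = 0.2, smallest possible 0.1). The 20 most abundant held 80.1% ± 0.41 and 80.7% ± 0.286, and the 50 most abundant of each library 98.2% in both strains.

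The order of the microRNAs was likewise much the same. Of the 10 most abundant microRNAs of each strain 8 were shared, of the 20 most abundant 17, and of the 50 most abundant 49. miR-44-3p and miR-45-3p were among the top 10 in N2 alone, and miR-64-5p and miR-72-5p in the mutants alone, but none of these differed between strains beyond its error. Among the 50 most abundant the median shift in rank was 2 places, and the largest was 8, by miR-66-5p. Across the 211 microRNAs the strain means had a Spearman rho of 0.988, a description over microRNAs that share libraries and not a test.

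Equal numbers of microRNAs, 5 in each strain, had a mean of at least 100000 normalised counts. A mean of at least 10000 was reached by 32 in N2 and 34 in the mutants, one of at least 1000 by 56 and 59, and one of at least 20 by 160 and 168. The rest lay at levels that few reads set.

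No microRNA other than miR-71 passed the test between the strains. In the limma fit 0 of 211 were called at an adjusted p under 0.05 (0%), and the smallest adjusted p was 0.903. At an unadjusted p under 0.05 there were 5, namely miR-792-3p, miR-5549-3p, miR-239a-5p, miR-244-5p and miR-795-3p. Replicates with the same number deviated together, and with the replicate number as a block the count of calls was again 0 (0%), with 19 at an unadjusted p under 0.05 and a smallest adjusted p of 0.231. No call was made under any of the other scalings, filters or left-out libraries either.

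A missing call does not show equal levels, so the size and the interval of each difference are given. By point value 192 of the 211 microRNAs (91.0%) lay within 2-fold between strains, 19 were at least 2-fold higher in the mutants and 0 at least 2-fold lower. The values ran from -0.98 to 1.87. The 95% intervals were wide, reaching a median of 1.12 on the log2 scale, or 2.17-fold, to either side. Only 22 microRNAs had an interval wholly within 2-fold, while 165 had one within 4-fold. With the replicate block these counts were 55 and 188. The number within 2-fold was 70 to 75 under the 4 other scalings. With the deposited log2 values 152 intervals lay within -1 to 1. On that scale miR-71-5p differed by -4.31, against -10.64 in the main fit. A span of 1 there is therefore not 2-fold, and the 152 cannot be set beside the other counts. Without the block, leaving out any 1 of the 6 day 0 libraries left 1 to 10 intervals within 2-fold, leaving out N2 day 5 replicate 2 left 13 and leaving out mutant day 5 replicate 1 left 40.

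By value the abundant microRNAs lay closest together. The 50 most abundant had a median absolute difference of 0.22, and all 50 lay within 2-fold by value. Of the next 50, 47 did so, with a median of 0.40, and of the last 111, 95, with a median of 0.42. The SE had a median of 0.48 in the first 50 and of 0.57 in the last 111. The widest of the 50 was miR-59-3p, picked out after its values were seen. It had 4732, 2510 and 3300 normalised counts in N2 and 14388, 2646 and 8084 in the mutants, which overlapped in mutant replicate 2, with a difference of 0.99 ± 0.64 (limma adjusted p = 0.966).

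The difference was known best for miR-65-5p, miR-78, miR-356b-3p, miR-235-3p and miR-49-3p. miR-49-3p had 1930, 1873 and 1886 normalised counts in N2 and 2202, 1503 and 1928 in the mutants. The N2 libraries lay close together and the mutants lay on either side of them, for a difference of -0.03 ± 0.36 and a 95% interval from -0.80 to 0.74. The interval of miR-65-5p ran from -0.69 to 0.82 and that of miR-356b-3p from -0.62 to 0.91, both inside 2-fold. Those of miR-78, from -1.07 to 0.45, and miR-235-3p, from -1.21 to 0.32, reached below it.

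More microRNAs lay above 0 than below it. By value 158 were higher in the mutants and 53 lower, and the median difference was 0.27, with a median SE of 0.53. This tilt depended on the scaling of the libraries. With all library totals made equal the median was 0.14 and the split 134 to 77, and with library medians made equal it was 0.09 and 117 to 94. Relative to the median of 0.27 under the authors' scaling, 201 of 211 microRNAs lay within 2-fold.

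The highest values belonged to scarce or middling microRNAs. miR-244-5p had 218, 132 and 171 normalised counts in N2 and 719, 181 and 457 in the mutants. Mutant replicates 1 and 3 lay above all N2 libraries and replicate 2 among them. Its difference was 1.20 ± 0.52 (limma adjusted p = 0.966, 0.278 with the block).

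miR-795-3p, the lesser arm of a let-7 family hairpin, had 42.2, 42.4 and 23.9 in N2 and 163, 43.1 and 93.8 in the mutants. The strains did not overlap, but mutant replicate 2 and N2 replicate 2 were almost equal. The difference was 1.29 ± 0.59 (limma adjusted p = 0.966, 0.278 with the block).

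miR-239a-5p, from a locus whose loss has been reported to prolong life, was scarce in both strains. It had 9.92, 2.23 and 9.57 normalised counts in N2 and 48.8, 8.35 and 27.4 in the mutants, which overlapped in mutant replicate 2. The difference was 1.72 ± 0.72 and had the smallest adjusted p of the table with the replicate block, 0.231. miR-792-3p, with means of 9.15 and 28.4, and miR-5549-3p, with means of 1.24 and 5.50, rested on similarly few reads.

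The other large positive values among microRNAs with a mean of at least 20 were those of miR-35-5p (1.37 ± 0.72), miR-39-5p (1.24 ± 0.90), miR-784-5p (1.13 ± 0.59), miR-251 (1.08 ± 0.55), miR-236-3p (1.03 ± 0.73) and miR-79-3p (1.02 ± 0.58). miR-79 is the worm relative of the neural miR-9 and acts in the epidermis. It had 234, 91.5 and 128 normalised counts in N2 and 448, 195 and 264 in the mutants. In each replicate number the mutant was higher, by 0.93, 1.08 and 1.04 on the log2 scale, though mutant replicate 2 lay below N2 replicate 1. The lowest limma adjusted p of miR-79-3p under the alternatives run on it, the replicate block among them, was 0.246. Of the others, miR-35-5p, miR-251 and miR-236-3p were also higher in each number, while miR-39-5p and miR-784-5p were lower in number 2.

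On the low side the values were smaller. miR-235-3p, a miR-92 relative that holds blast cells quiescent in starved larvae, had 7724, 11851 and 9988 normalised counts in N2 and 7042, 6968 and 7408 in the mutants. All mutant libraries were below all N2 libraries, by a margin of a few percent at the closest, and the difference was -0.44 ± 0.36 (limma adjusted p = 0.966). It was the most abundant microRNA whose strains did not overlap. miR-45-5p, the passenger of the abundant miR-45-3p, had 351, 250 and 249 in N2 and 212, 93.2 and 223 in the mutants. These too did not overlap, with a difference of -0.77 ± 0.58.

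The other low values were those of miR-77-5p (-0.76 ± 0.71), miR-74-5p (-0.73 ± 0.56), miR-2210-3p (-0.68 ± 0.47), miR-58-5p (-0.62 ± 0.43), miR-799 (-0.52 ± 0.49) and miR-72-3p (-0.45 ± 0.43). miR-77-5p, miR-58-5p and miR-72-3p among them are the lesser arms of abundant microRNAs. All of these but miR-74-5p were lower in the mutant in each replicate number. For miR-58-5p the differences by number were -0.61, -0.57 and -0.69. Its lowest limma adjusted p under the alternatives run on it, the replicate block among them, was 0.298.

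Altogether 10 of 211 microRNAs had strains that did not overlap (4.74%). The mutants were above N2 for 7 of them, namely miR-1821, miR-5592-5p, miR-65-3p, miR-75-3p, miR-79-5p, miR-792-3p and miR-795-3p. They were below for miR-2210-3p, miR-235-3p and miR-45-5p. With equal library totals, miR-71 counted in them, 25 were above and 3 below. With miR-71 and the 5 most abundant left out of the totals the counts were 14 and 4. Library medians made equal gave 11 above and 4 below, and the trimmed mean of M-values 8 above and 11 below. The number thus rested on the scaling, and the direction of the split turned with the trimmed mean of M-values alone.

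**Figure D3:**
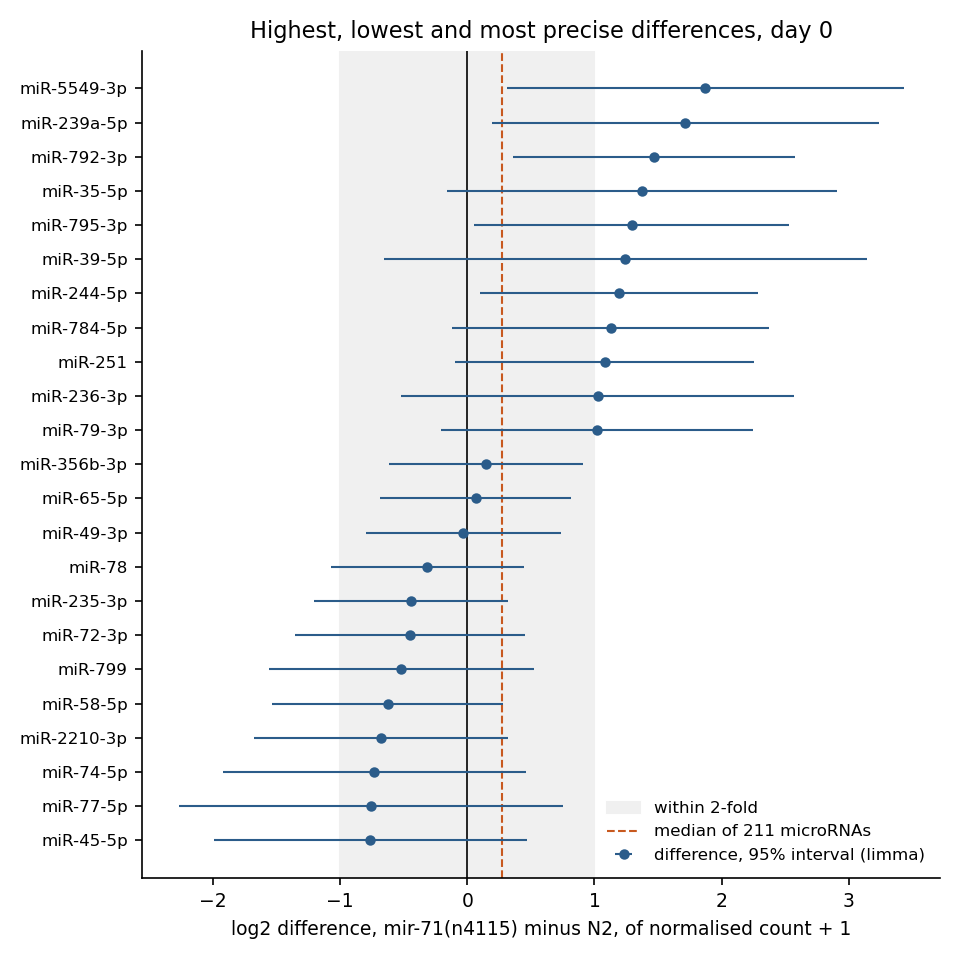
Differences of the microRNAs with the highest and lowest values, with an unadjusted p under 0.05 or with the narrowest intervals (x axis, log2 of mutant over N2 normalised count plus 1), with 95% intervals from limma, a grey band for 2-fold and a dashed line at the median of 0.27. The intervals are not adjusted over the table, so those of the 5 microRNAs with an unadjusted p under 0.05 exclude 0 by definition. None of the 5 has an adjusted p under 0.05.

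MicroRNAs of 1 family share a seed, the stretch that pairs with targets, and can often stand in for each other, so families were described as groups. No member of any of the 13 families and lists was called. The let-7 family, which drives the larval-to-adult switch, had 5 of 7 members above 0 and a median of 0.15, with let-7-5p at -0.18 ± 0.43 and miR-793 at 0.70 ± 0.53. let-7-5p itself, the founding member, had 16171, 13279 and 10908 normalised counts in N2 and 15818, 9258 and 10933 in the mutants, ranges that coincide. The lin-4 family, which acts at the first larval transitions, had a median of 0.11, with lin-4-5p at 0.17 ± 0.39 and miR-237-5p at 0.05 ± 0.44.

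The mir-58 family was the largest by level. Its 6 measured members of 8 listed summed to 650819, 360063 and 397724 normalised counts in N2 and to 852832, 365511 and 535165 in the mutants, with 4 members above 0 and a median of 0.30. As a share this was between 25.1% and 30.0% of the N2 totals and between 27.0% and 28.6% of the mutant totals, so that the mutant shares fell inside the N2 range. miR-2209a-3p (0.76 ± 0.56) and miR-81-3p (-0.08 ± 0.60) were its extremes.

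The mir-51 family, needed redundantly for embryonic development, was the only list with a median below 0 under the authors' scaling. It had 3 of 6 members above 0 and a median of -0.07, between miR-56-3p at -0.31 ± 0.37 and miR-54-3p at 0.33 ± 0.48. Its summed level was 177341, 158393 and 138795 in N2 and 171973, 147950 and 141030 in the mutants, almost the same range.

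The mir-64 family had all 5 members above 0, with a median of 0.29 and extremes in miR-65-5p and miR-229-5p (0.66 ± 0.46). The mir-72 family had a median of 0.27, from miR-73-3p (0.06 ± 0.40) to miR-74-3p (0.46 ± 0.44). In the mir-44 family the median was 0.08, and miR-247-3p was highest at 0.81 ± 0.67. The mir-2 family had a median of 0.51, with miR-250-3p at 0.73 ± 0.61 and miR-2-3p at -0.04 ± 0.48. Against the median of 0.27 over all 211 microRNAs, and with these errors, no family stood out by its count of calls.

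The list of mirtrons, a class made from short introns by the splicing machinery that bypasses the first cleavage enzyme, had the highest median, 0.99 over 3 members. miR-62 had 216, 89.2 and 92.6 normalised counts in N2 and 456, 121 and 258 in the mutants. The mutant was the higher in each replicate number, though N2 replicate 1 exceeded mutant replicate 2, and the difference was 0.99 ± 0.61 (limma adjusted p = 0.440 with the block). The annotation used here places mir-62 and mir-1020 in introns of their own strand but mir-1018 in no annotated protein-coding gene. miR-1018 (1.05 ± 0.70) and miR-1020-3p (0.65 ± 0.49) were also above 0. All 3 stayed there under the other scalings, with a median of at least 0.80. miR-1018, the highest of the 3, rested on few reads, with means of 6.36 normalised counts in N2 and 11.9 in the mutants.

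MicroRNAs with a reported effect on lifespan, mir-71 left aside, had 8 of 8 members above 0 by value and a median of 0.29, and 7 of 7 with a median of 0.26 without miR-239b-5p, beside 0.27 for the whole table. miR-246-3p, which promotes long life, had 16437, 8382 and 10028 normalised counts in N2 and 29602, 8744 and 18638 in the mutants. The strains overlapped, the mutant was the higher in each replicate number, and the difference was 0.60 ± 0.54 (limma adjusted p = 0.608 with the block). miR-34-5p, which acts in the response to DNA damage, differed by 0.40 ± 0.50 and miR-238-3p by 0.01 ± 0.41. miR-239b-5p had a mean of 0.413 normalised counts in N2 and 2.26 in the mutants, both below what 3 reads are worth, and its difference is not read on its own.

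With library medians made equal the signs were less uniform. The medians of the let-7, lin-4, mir-44 and nervous system lists were then below 0, from -0.04 to -0.11, and 5 of the 8 lifespan members stayed above 0.

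**Figure D4:**
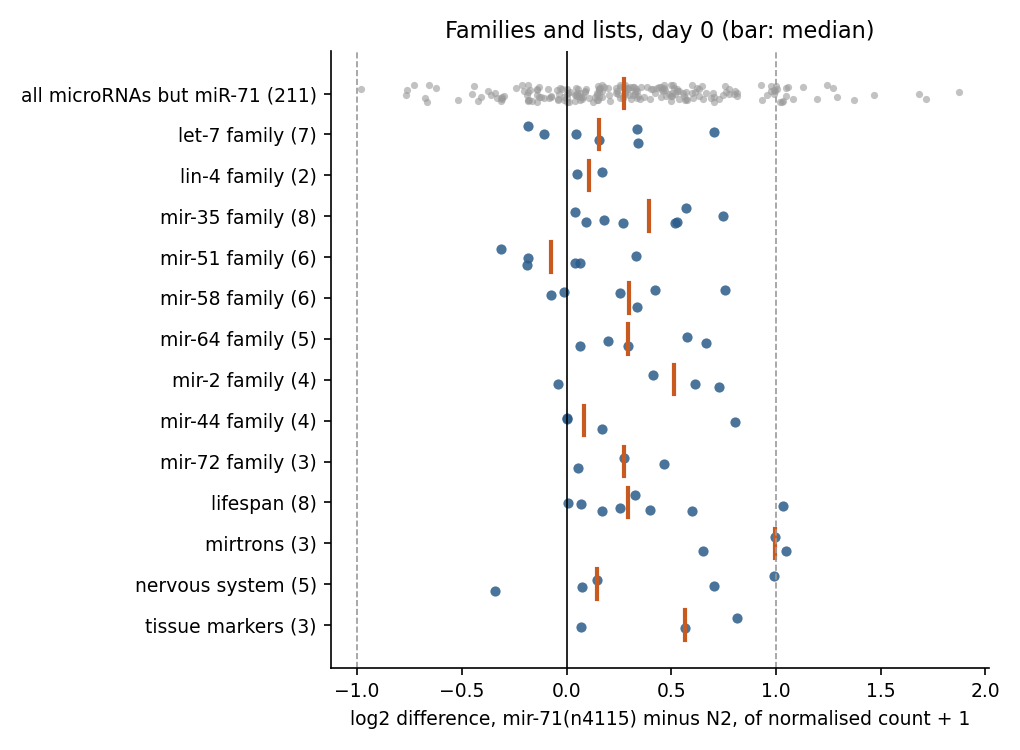
Differences of the members of each family or list (x axis, log2 of mutant over N2 normalised count plus 1), 1 point per microRNA, with all 211 microRNAs on top, the number of members in brackets, orange bars for medians and dashed lines at 2-fold. The list medians lie between -0.07 and 0.99 around the overall median of 0.27.

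Because whole animals were sequenced, fewer cells of a type and less RNA per cell cannot be told apart. Tissue markers were present in all libraries. The muscle microRNA miR-1-3p is given above. miR-60-3p of the intestine had 2428, 1958 and 1625 normalised counts in N2 and 6401, 1801 and 3651 in the mutants, overlapping in mutant replicate 2, with a difference of 0.82 ± 0.52. miR-228-5p of glia differed by 0.07 ± 0.50.

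The nervous system list had 4 of 5 members above 0 and a median of 0.15. lsy-6, which makes the left and right taste neurons of a pair differ, had 14.9, 15.6 and 11.2 normalised counts in N2 and 49.7, 12.5 and 35.8 in the mutants. Mutant replicates 1 and 3 were above N2 and replicate 2 within it, and the difference was 0.99 ± 0.71. miR-791-3p of CO2-sensing neurons was lowest at -0.34 ± 0.45, and miR-124-3p of sensory neurons differed by 0.15 ± 0.55.

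The mir-35 family, made in the germline and in embryos and essential for embryogenesis, took widely different levels in replicates of the same strain. Its 8 members summed to 98159, 23253 and 39983 normalised counts in N2 and to 155035, 14265 and 78487 in the mutants. Replicate 1 was highest and replicate 2 lowest in both strains, and the strains overlapped widely. As a share of the total without miR-71 the sums were 4.53%, 1.62% and 2.76% in N2 and 5.13%, 1.12% and 3.96% in the mutants, in the same order. All 8 members were above 0, with a median of 0.39, from miR-40-3p (0.04 ± 0.67) to miR-38-3p (0.74 ± 1.10), and with library medians made equal 5 of 8 were. The list includes miR-41-5p, the arm with the higher count but not the one usually named as guide.

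The replicate numbers thus carried a difference of their own. Between replicates 1 and 2 the members of the mir-35 list differed by a median of 3.33 on the log2 scale in the mutants and 2.10 in N2, against 1.20 and 0.43 over all 211 microRNAs. What separates the replicates is not given in the sources used here, and the part of germline or embryo content in the strain differences was not tested.

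Under the authors' scaling the tilt towards higher values in the mutants was not the same in each replicate number. The median difference between mutant and N2 was 0.57 for replicate 1, -0.18 for replicate 2 and 0.50 for replicate 3. With equal library totals these medians were 0.21, 0.08 and 0.16, and with library medians made equal 0.42, -0.18 and 0.05, so that the sign in replicate 2 turned with the scaling. Only 47 of 211 microRNAs were higher in the mutant in all 3 numbers and 17 lower in all 3, which leaves 147 with mixed signs. Without mutant replicate 2 the median strain difference was 0.57 and 40 microRNAs had an unadjusted p under 0.05, and without mutant replicate 1 it was -0.00 and 0 did. In neither case was any called by limma, with smallest adjusted p values of 0.083 and 0.998.

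Mutant replicates 1 and 2 stood farthest apart of all day 0 pairs. In 122 of 211 microRNAs replicate 1 exceeded replicate 2 by at least 2-fold, and in 3 the reverse held, against 43 and 0 between the same numbers of N2. With equal library totals these counts were 35 and 37 in the mutants and 23 and 16 in N2. The SD of log2 levels had a median of 0.40 in N2 and 0.68 in the mutants under the authors' scaling. It was 0.34 and 0.41 with equal library totals. Mutant replicate 2 was also the shallowest day 0 library and mutant replicate 1 the deepest.

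As scaled by the authors, single libraries of the 2 strains resembled each other about as much as those of 1 strain. Between N2 replicates 165 to 186 of the 211 microRNAs lay within 2-fold. Between an N2 and a mutant library of the same number 161 to 179 did, and between those of different numbers 99 to 186. Between mutant replicates the range was 86 to 184, the lowest being replicate 1 against replicate 2. These counts carry the unequal library totals, which the Spearman rho of 2 libraries does not. The rho was 0.978 to 0.984 within N2 and 0.954 to 0.989 within the mutants. Across strains it was 0.979 to 0.982 for the same number and 0.956 to 0.983 for different numbers.

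**Figure D5:**
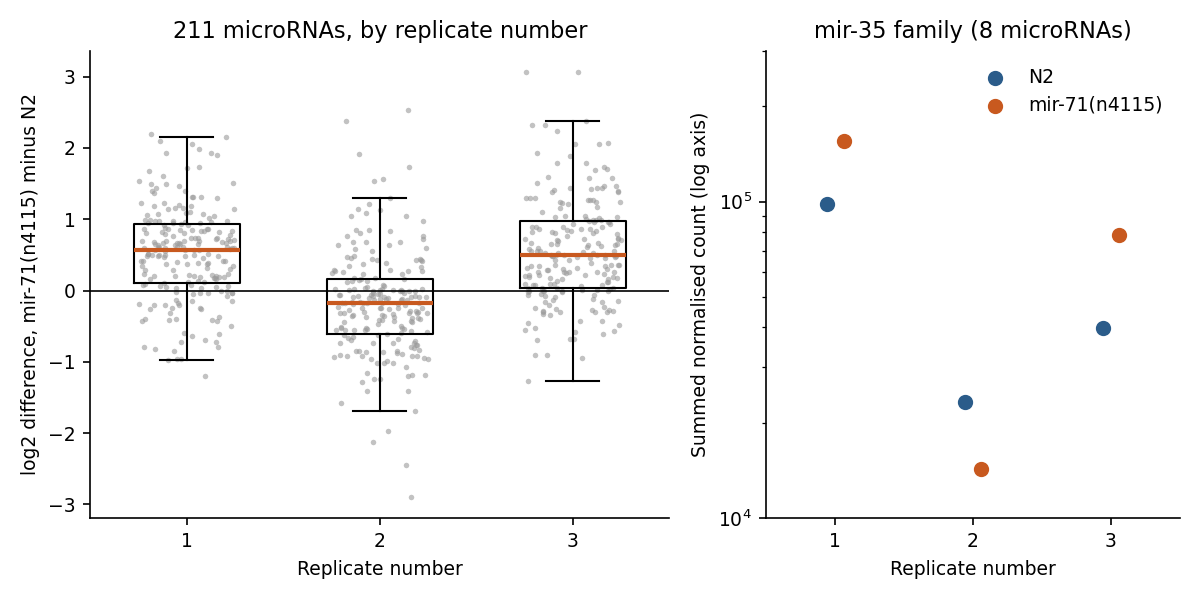
Left, the log2 difference between the mutant and the N2 library of each replicate number for 211 microRNAs, with boxes for the quartiles, orange lines for the medians and whiskers to the last point within 1.5 box lengths. Right, the summed normalised count of the mir-35 family in each day 0 library (logarithmic axis). As scaled by the authors, the median is above 0 for replicates 1 and 3 and below 0 for replicate 2. For replicate 2 it is 0.08 with equal library totals, in which miR-71 is counted. Replicate 2 also has the lowest mir-35 sum in both strains.

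The choice of arm can be compared almost without scaling, since both arms come from the same library and only the added 1 depends on it. In 61 hairpins other than mir-71 both arms had values, and 0 were called between strains in the ratio of the 5p to the 3p arm (0%). These include miR-44 and miR-45, whose 3p reads cannot be told apart, so that neither ratio belongs to its hairpin alone. The smallest limma adjusted p was 0.541, and 2 hairpins, miR-65 and miR-795, had an unadjusted p under 0.05. Without mutant replicate 2 this number was 14, with a smallest adjusted p of 0.054 and again 0 calls, and with the replicate block it was 5. Other single libraries left out gave 1 to 5, namely 4 without N2 replicate 1, 5 without N2 day 5 replicate 1, 3 without N2 day 5 replicate 3, and 1 or 2 without any of the rest. The same arm was the more abundant in both strains in 60 of the 61, and the exception, miR-358, had nearly equal arms by mean. Its log2 ratio of 5p to 3p ran from -0.96 in mutant replicate 1 to 1.21 in mutant replicate 2. The median excess of the major arm was 45.5-fold in N2 and 38.6-fold in the mutants.

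The widest shifts among hairpins with both arms at a mean of at least 20 were towards the 3p arm in miR-74 (-1.20 ± 0.59), miR-250 (-1.15 ± 0.84) and miR-795 (-1.14 ± 0.51), and towards the 5p arm in miR-35 (1.28 ± 0.72), miR-229 (0.80 ± 0.46) and miR-240 (0.78 ± 0.72). For miR-74 the log2 ratio of 5p to 3p was -2.30, -1.30 and -1.80 in N2 and -3.09, -2.91 and -2.98 in the mutants. The strains did not overlap there, and the adjusted p was 0.541 in limma. In all of these the major arm stayed the same.

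No neighbour of mir-71 was called. The hairpin lies on chromosome I, positions 9379927 to 9380020 of WBcel235 on the minus strand, within an intron of ppfr-1, a protein phosphatase regulatory subunit gene transcribed from the same strand. mir-2 lies in an intron of the same gene, 7.06 kb away at 9372768 to 9372865. Its guide miR-2-3p had 600, 334 and 429 normalised counts in N2 and 702, 231 and 489 in the mutants, which enclose the N2 values, for a difference of -0.04 ± 0.48 and a 95% interval from -1.05 to 0.98. miR-2-5p, at means of 12.4 and 11.9, differed by -0.04 ± 0.60. The next measured genes beyond are mir-79, 46.9 kb away, whose 3p arm is described above, and, on the other side, mir-1817. miR-1817 differed by 0.25 ± 0.42.

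The day 0 comparison was set beside that at day 5. At day 5, 48 of the 211 microRNAs were called, all of them higher in the mutants (22.7%), and 96 with the replicate block. Under the authors' scaling the median strain difference at day 5 over all of the 211 was itself 0.98. Equal totals gave 28 calls, equal totals of the scarcer microRNAs 23, the trimmed mean of M-values 21 and equal medians 29. Leaving out 1 library gave 1 to 75 calls at day 5, namely 1 without mutant day 5 replicate 1, 25 without mutant day 5 replicate 3, 6 and 3 without N2 day 5 replicates 1 and 2, and 75 without mutant day 0 replicate 2. The test of the difference between the 2 strain differences called 0 (0%), with 25 at an unadjusted p under 0.05 and a smallest limma adjusted p of 0.398. With the block it called 0, with 41 at an unadjusted p under 0.05. By value, under the authors' scaling, the strain difference was greater at day 5 than at day 0 in 177 of 211 microRNAs, with a median excess of 0.70 and a median SE of 0.75. The 0 calls at day 0 therefore do not show that the young profile differs from the older one in its response to the loss of mir-71.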

How the data were processed

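Small RNA of whole animals was sequenced in 12 libraries, 3 for each strain and age, and groups and replicate numbers were read from the labels. Per the submitters' processing notes, the tools were STAR 2.4.0h and DESeq2, on genome build WBcel235. How reads were trimmed and counted is not stated in the labels. The values the authors deposited are normalised read counts (a signal) of 213 mature microRNAs. The step between values of a library was taken as 1 read, since 100% of values were whole multiples of it to within 0.001. Low values are too few to check this formally, and read numbers and floors depend on it. The authors also deposited log2 values whose transformation is not stated, used only as an alternative.

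Here 1 was added to the normalised counts and log2 taken, and the 4 group means of all 12 libraries were fitted with an intensity trend (limma 3.58.1 in R 4.3.3). No filter was applied. Tests were two-sided, with Benjamini-Hochberg adjustment over all 213 microRNAs and calls at an adjusted p under 0.05, and miR-71 was left out of counts. Arm ratios were fitted likewise, without the trend. The procedure was tested on simulated data with independent errors, without differences in library scaling or effects of the replicate number, so it does not cover these. The log2(value + 1) scale understates differences of scarce microRNAs.

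The deviations of same-numbered N2 and mutant day 0 libraries from their group means correlated across microRNAs at 0.57, 0.41 and 0.25. The numbers were therefore taken to pair the libraries. Fits with the number as a block are given for the main counts and for some of the named microRNAs. The labels call the libraries biological replicates but do not say what a number shares. Positions are from the Ensembl release 115 annotation of WBcel235, which matched 208 of 213 microRNAs. The members and lists were chosen with earlier results of these data known. Named were the 12 most abundant, the 8 highest and 8 lowest differences at a day 0 mean of at least 20, those with an unadjusted p under 0.05, the extremes of each list, the 5 narrowest intervals, the neighbours of mir-71 and 6 hairpins. The microRNAs named for not overlapping, miR-59-3p, miR-66-5p, miR-72-5p, miR-62, miR-246-3p, miR-34-5p and miR-124-3p were added after their values were seen. Levels summed by shared seed were not analysed here, since no mature sequences were used.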

Additional observations from a re-analysis of the deposited data

How the results depend on the processing

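At day 0 no microRNA other than miR-71 was called under any alternative run on that count (pseudocounts of 0.5 and 5, 4 other scalings, day 0 libraries alone, replicate blocks, other limma settings, a filter, the deposited log2 values and each library left out). The difference between ages gave 0 calls under those of them that use both ages. Arm ratios gave 0 calls under both pseudocounts, the block over 12 libraries, day 0 alone, both arms at a mean of at least 20 and each library left out. The miR-71 arms kept their calls throughout. The number of intervals wholly within 2-fold, 22, moved with the error model and the scaling. It was 34 with a pseudocount of 5, 55 with the replicate block and 61 with that block in the day 0 libraries alone. With the deposited log2 values 152 intervals lay within -1 to 1, which on that scale is not 2-fold. Scaling libraries to equal totals gave 75, and to equal totals of the scarcer microRNAs (miR-71 and the 5 most abundant left out) 70. The trimmed mean of M-values gave 72 and equal medians 70. Combinations of the block with the 4 scalings, added after seeing the data, gave 90, 87, 86 and 87. Leaving out 1 library gave 1 to 40. The 48 calls at day 5 became 28, 23, 21 and 29 under the 4 scalings, 96 with the block and 1 to 75 without 1 library, the lowest without mutant day 5 replicate 1. The causes were not tested. Of the 59 other named microRNAs 0 were called under any alternative, 21 changed sign under at least 1 alternative, 13 of them under another scaling, and 13 moved by more than 1 SE. Summed seed groups were not run. Depth limits the scarce microRNAs, where 3 reads are worth up to 4.79 normalised counts at day 0.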

Other observations

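Under the authors' scaling, and against the general order of the mutant libraries there, 3 microRNAs were at least 2-fold higher in mutant replicate 2 than in replicate 1. They were chosen for this after their values were seen. With equal library totals that order was gone, with 37 at least 2-fold higher in replicate 2 and 35 in replicate 1. miR-240-3p and miR-786-3p come from hairpins that lie together within positions 7882622 to 7882840 of chromosome X, a locus that sets the rhythm of defecation in the intestine. miR-240-3p had 2043, 2378 and 2191 normalised counts in N2 and 1132, 3938 and 1441 in the mutants, so that replicate 2 stood above and the other mutants below all N2 libraries. miR-786-3p had 243, 155 and 152 in N2 and 105, 344 and 103 in the mutants, the same order. The third, miR-358-5p, had 35.97, 31.23 and 20.75 in N2 and 18.1, 94.6 and 17.9 in the mutants. The N2 libraries showed no such separation of replicate 2 in these 3 microRNAs.

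By chromosome, the median strain difference at day 0 lay between 0.18 on chromosome II, over 40 microRNAs, and 0.40 on chromosome I, the chromosome of mir-71, over 18, and 0 were called by limma on any chromosome. miR-792-3p (1.47 ± 0.52) and miR-1821 (0.93 ± 0.47), neighbours on chromosome V, had the highest median of the 22 clusters with genes less than 10 kb apart, 1.20, and their strains did not overlap for either.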
